A study of Mus musculus with 22 samples.

Results

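The genes described here encode SNARE proteins and the factors that set them up for membrane fusion or take them apart again. Members were chosen by gene name from a list of 41, of which 40 had an entry among the 54514 entries of the expression table. Vamp7 was not analysed here. RNA was measured in mpkCCD cells, a mouse cortical collecting duct line (mpkCCDc11 clone 38), in 22 libraries that form 10 groups. Unsorted wild-type cells received vehicle (3 libraries) or dDAVP, a vasopressin analogue that acts on the V2 receptor (3 libraries). The other 16 libraries came from 4 GFP reporter clones named C1, C11, C43 and C50, all given dDAVP and divided into GFP-negative and GFP-positive cells, with 2 libraries for each fraction of each clone. The series title ties the reporter to aquaporin-2 (Aqp2), the vasopressin-regulated water channel. The labels used here do not give the promoter that drives GFP, nor the dDAVP dose and duration of each library. All cells grew on transwells for 4 days in complete medium. They were then moved to serum-free medium with 50 nM dexamethasone and 60 nM sodium selenite. No vehicle-treated clone cells were included, so the GFP comparison is among dDAVP-treated cells only. Each clone is a line of its own, and the labels do not say whether its 2 libraries per fraction came from separate cultures. The same holds for the wild-type libraries, so every p-value measures the spread between these libraries, which may be technical.

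SNAREs are small, mostly membrane-anchored proteins that pull a vesicle and its target membrane together by zipping into a bundle of helices. The bundle takes a Qa helix (a syntaxin), a Qb and a Qc helix (from separate proteins or from a SNAP-23-type protein that carries both) and an R helix (usually a VAMP on the vesicle). Sec1/Munc18 proteins clasp syntaxins and steer assembly, while the ATPase NSF and its SNAP adaptors (Napa, Napb, Napg) pull spent complexes apart. In collecting duct principal cells, vasopressin moves vesicles carrying aquaporin-2 to the apical membrane. Vamp2, Vamp3, Vamp8, Stx3, Stx4, Snap23 and the Munc18 protein Stxbp2 have been linked to that step.

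Values are TPM, a measure of transcript abundance scaled for transcript length and library size, so levels of different genes can be set side by side. The sequencing depth behind them is unknown. Between 17206 and 31393 genes were above 0 TPM per library. The labels held for the marker genes: Aqp2 was at 64.1 to 74.9 TPM in vehicle and 2759 to 3025 TPM in dDAVP wild-type libraries. GFP was at 5.31 to 17.6 TPM in GFP-negative and 1065 to 1567 TPM in GFP-positive libraries. Of the 13 principal cell markers, 10 reached 1 TPM in at least 1 library, among them Avpr2, Scnn1a and Gata3, whereas Scnn1b, Kcnj1 and Elf5 stayed under 1 TPM in all 22 libraries. Of 13 intercalated cell markers 6 reached 1 TPM, and Foxi1, Slc4a1 and Slc26a4 never did. The summed level of these markers was 26.9 to 82.2 TPM in GFP-negative and 61.5 to 123 TPM in GFP-positive libraries, with a higher mean in the GFP-positive cells of 4 of 4 clones. Of 6 leukocyte markers 3 reached 1 TPM, and Cd3e and Adgre1 were under 1 TPM throughout. Their sum was 17.4 to 31.6 TPM in GFP-negative and 11.95 to 21.7 TPM in GFP-positive libraries, with a lower GFP-positive mean in each clone. The part of these marker shifts in the GFP differences below was not tested. In wild-type cells the intercalated sum was 146 to 149 TPM with vehicle and 149 to 184 TPM with dDAVP, and the leukocyte sum was 15.9 to 21.2 and 13.7 to 20.2 TPM. The sum of 7 proximal tubule markers, of which 1 (Lrp2) reached 1 TPM, was 10.3 to 16.2 TPM with vehicle and 5.17 to 9.04 TPM with dDAVP. The sum of 8 epithelial markers, all present, was 11454 to 12675 TPM with vehicle and 15798 to 17047 TPM with dDAVP. Between GFP-negative and GFP-positive libraries these sums were 0.94 to 13.4 and 4.02 to 16.7 TPM (proximal tubule) and 14369 to 15991 and 15556 to 18638 TPM (epithelial), both with a higher GFP-positive mean in 4 of 4 clones. Their part in the dDAVP and GFP differences was not tested. All 10 mesenchymal markers together stayed at or below 3.69 TPM. Replicate 1 of the C50 GFP-negative cells was the lowest of the 8 GFP-negative libraries for several members (Stx2, Stx3, Stx5a, Stx6, Napa, Vamp2 and Snap23). It was the highest for others (Vti1b, Bnip1, Stx8, Bet1l, Use1, Vamp8 and Vamp5). The counts and main results that rest on it are also given without it. As it was singled out after seeing these values, results without it are a description only.

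Of the 40 genes, 39 averaged at least 1 TPM and so could be tested. By the median of the 10 group means, 9 members stood at 100 TPM or more, 27 between 10 and 100 TPM, 3 between 1 and 10 TPM and 1 under 1 TPM. Vamp8, an R-SNARE of late endosomes and secretory granules in epithelia, was the most abundant, with group means from 324 TPM in vehicle-treated wild-type cells to 532 TPM in C11 GFP-positive cells. Stx5a, the Qa-SNARE of traffic between the endoplasmic reticulum and the Golgi, had a median group mean of 230 TPM. The lysosomal Qb-SNARE Vti1b stood at 207 TPM on the same measure, the endosomal syntaxin Stx7 at 198 TPM, and Stxbp2, the Munc18 protein of epithelia, at 195 TPM. Of the forms known from neurons, Snap25, Stx1a and Vamp1 lay at the other end, but Vamp2 did not, with a median group mean of 57.1 TPM. Snap25, the SNAP protein of synapses, reached at most 0.53 TPM in any library and was not tested, while its widely expressed counterpart Snap23 had group means of 28.5 to 50.1 TPM. Stx1a, the synaptic syntaxin, had group means of 5.17 to 12.6 TPM and Vamp1 of 2.65 to 5.48 TPM. Between the lowest and highest of the 10 groups, the means of 29 members differed by less than 2-fold. The 10 that differed by 2-fold or more were Napb, Stx18, Stx1a, Stx2, Stx3, Stx7, Stxbp4, Vamp1, Vamp2 and Vamp5, with Stx2 the most variable at 3.46-fold. Summed over all 40 members, the level stayed between 2583 and 2950 TPM across groups.

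**Figure D1:**
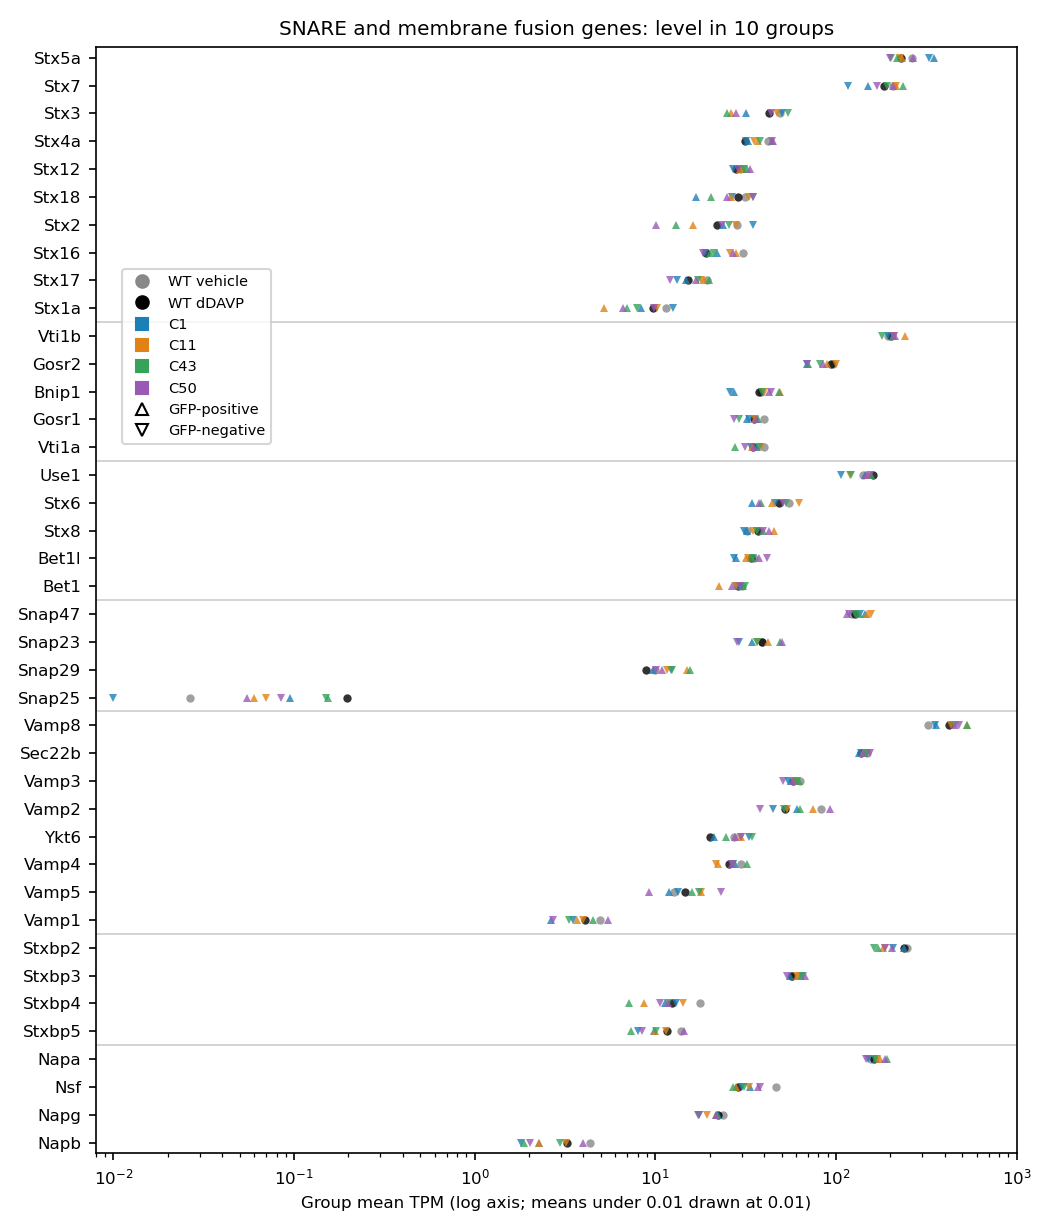
Group mean TPM (x axis, log scale) of the 40 genes, ordered by role; circles are wild-type groups (3 libraries each), triangles clone fractions (2 libraries each; up, GFP-positive; down, GFP-negative). Vamp8 lies farthest to the right and Snap25 farthest to the left, and the 10 groups of most genes lie within 2-fold of each other.

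The first comparison asked which fusion genes differ between dDAVP and vehicle in wild-type cells. Stx16, a syntaxin of endosome-to-Golgi transport, and Nsf fell, and no member rose. In bulk RNA, fewer cells that express a gene and less of its RNA per cell cannot be told apart. These 2 of 39 tested members compare with 8.88% of all 13494 genes tested (2.37% higher and 6.51% lower; limma on log2(TPM + 1), adjusted p under 0.05). At an unadjusted p under 0.05, 11 members passed, 1 higher and 10 lower, and 31% of all genes did. The median log2 change was -0.14 over the 39 members and -0.16 over all genes tested. Positive values were found for 9 of 39 members and for 29.6% of all genes. The members as a group thus shifted about as far as the whole table.

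Stx16 was at 32.7, 30.7 and 28.4 TPM in the vehicle libraries and at 18.9, 20.5 and 17.5 TPM after dDAVP. All dDAVP libraries lay below all vehicle libraries. The log2 change was -0.66 (SE 0.0991; limma adjusted p = 0.0111), or -0.50 relative to the median of all genes. Without vehicle replicate 2 the adjusted p was 0.0515, without dDAVP replicate 3 it was 0.0549, and with all 22 libraries in one fit it was 0.052. Nsf, the ATPase that recycles SNARE complexes, was at 55.4, 45.2 and 38.9 TPM with vehicle and at 25.1, 28.9 and 31.8 TPM with dDAVP, again without overlap. Its log2 change was -0.67 (SE 0.146; limma adjusted p = 0.0356), or -0.52 relative to all genes. This call was lost in 11 of 15 alternatives, with an adjusted p of 0.0569 after median-ratio scaling. Leaving out vehicle replicate 1 gave 0.089, vehicle replicate 2 gave 0.0942, vehicle replicate 3 gave 0.0501, dDAVP replicate 1 gave 0.102 and dDAVP replicate 3 gave 0.0797. The number of members called was 0 without vehicle replicate 2 or without dDAVP replicate 3. It was 5, all lower, without dDAVP replicate 2, and 1 without any of the other 3 libraries.

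Of the 3 R-SNAREs linked to aquaporin-2 vesicles, none passed the threshold in this fit. With the number of genes detected as a covariate, Vamp2 (log2 -0.74; limma adjusted p = 0.0267) and Vamp8 (log2 0.44; adjusted p = 0.0269) passed. That fit called 20% of all genes, in place of 8.88%. With median-ratio scaling and quantile normalization the limma adjusted p was 0.104 and 0.0974 for Vamp2, and 0.114 and 0.175 for Vamp8. Of 15 alternatives, Vamp2 passed in 3 and Vamp8 in 1. The values of Vamp2 and Vamp8 did not overlap between the groups, and those of Vamp3 did. Vamp2 was at 98.0, 75.6 and 74.2 TPM with vehicle and at 43.2, 67.2 and 45.5 TPM with dDAVP, with every dDAVP library below every vehicle library (log2 -0.67, SE 0.185; limma adjusted p = 0.0638). Without dDAVP replicate 2, the highest of its group, it was -0.87 with an adjusted p of 0.017. Vamp8 was at 269, 337 and 367 TPM with vehicle and at 468, 369 and 426 TPM with dDAVP, with all dDAVP libraries higher (log2 0.38, SE 0.135; limma adjusted p = 0.111). Vamp3 is an R-SNARE of recycling endosomes (log2 -0.13, SE 0.103; adjusted p = 0.404). Of the summed TPM of Vamp2, Vamp3 and Vamp8, Vamp8 held 68.7% ± 6.05 (SD, n = 3) with vehicle and 79.1% ± 4.81 (n = 3) with dDAVP, and Vamp2 17.8% ± 4.17 and 9.91% ± 3.11. Among all tested members, all dDAVP libraries were below all vehicle libraries for 11 and above for 1, Vamp8. Over all genes, 35.8% separated completely in one direction or the other.

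**Figure D2:**
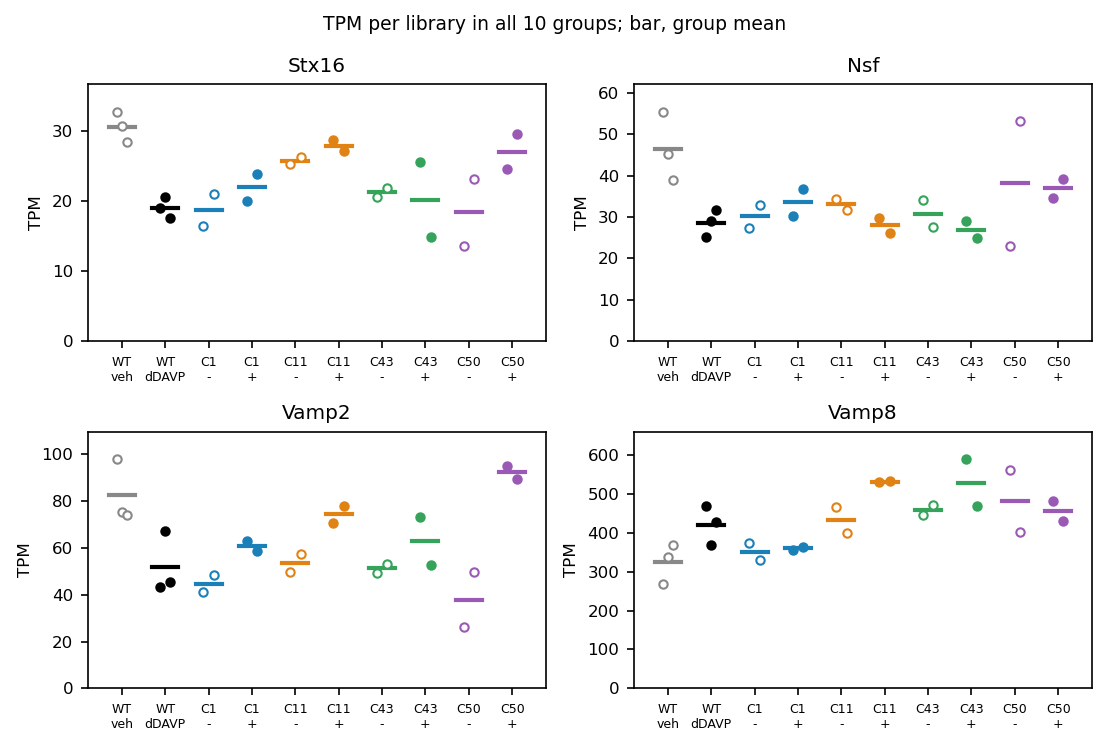
TPM per library (y axis, from 0) of Stx16, Nsf, Vamp2 and Vamp8 in all 10 groups; points are libraries, bars are group means, open points are vehicle or GFP-negative. The dDAVP wild-type points of Stx16, Nsf and Vamp2 lie below the vehicle points, and those of Vamp8 above.

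The target-side proteins of the plasma membrane did not pass the threshold in this fit. Stx4a, a syntaxin of the plasma membrane, was at 46.9, 44.5 and 34.4 TPM with vehicle and 34.6, 30.7 and 28.7 TPM with dDAVP, with 1 dDAVP library just above the lowest vehicle library (log2 -0.40, SE 0.135; limma adjusted p = 0.099). Stx2 was at 27.9, 27.6 and 29.5 TPM and then 18.8, 24.7 and 22 TPM, without overlap (log2 -0.37, SE 0.114; adjusted p = 0.0823). Without dDAVP replicate 2 its adjusted p was 0.038, and adding the number of genes detected as a covariate gave 0.0473, in the fit that called 20% of all genes. Median-ratio scaling and quantile normalization gave 0.231 and 0.353. Stx3, the apical syntaxin of epithelia, overlapped between the groups at 48.7 ± 7.10 and 42.6 ± 2.81 TPM (SD, n = 3 each; log2 -0.18, SE 0.116; adjusted p = 0.322). Snap23 stood at 38.7 ± 2.63 and 39.1 ± 3.10 TPM (n = 3 each; log2 0.01, SE 0.0949; adjusted p = 0.948). The Munc18 proteins were near 0 in the same fit, with log2 -0.05 (SE 0.0699; adjusted p = 0.683) for Stxbp2 and 0.01 (SE 0.0898; adjusted p = 0.941) for Stxbp3.

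The second comparison asked which fusion genes differ between GFP-positive and GFP-negative cells of the same clone, all with dDAVP. Syntaxins of several compartments fell: Stx1a, Stx2 and Stx3 of the plasma membrane, Stx6 of the trans-Golgi network and Stx18 of the endoplasmic reticulum. Vamp2, Snap23, Stx7, Use1 and the SNAP adaptors Napa and Napg rose. These 11 called members (6 higher, 5 lower) of 39 tested compare with 35.3% of all 13113 genes tested (12.1% higher, 23.2% lower). At an unadjusted p under 0.05, 17 members and 43.8% of all genes passed. The median log2 difference was 0.09 over the members and -0.06 over all genes, with positive values for 25 of 39 members and 42.4% of all genes. Scaling changed the split. With median-ratio scaling 12 members were called higher and 5 lower, and with quantile normalization 14 and 5, while all tested genes went from 34.2% of calls higher to 51.1% and 50.5%. Without replicate 1 of the C50 GFP-negative cells, 17 members were called, 11 higher and 6 lower. The additions were Stx5a, Vti1b, Bnip1, Stx8 and Vamp8 (higher) and Stxbp4 (lower). Vti1b, Bnip1, Stx8 and Vamp8 had their highest GFP-negative value in the library left out, and Stx5a and Stxbp4 their lowest. Arg2 lies on the other strand and covers 17.7% of the Vti1b exons, where reads cannot be told apart without strand. Arg2 averaged 117 TPM in GFP-negative and 317 TPM in GFP-positive libraries. Its part in the Vti1b level and difference was not tested. Without clone C1, 6 were called (2 higher, 4 lower), and without clone C43, 6 (1 higher, 5 lower). In the 8 clone libraries with fewer genes detected, limma called no member and 1.96% of the 12776 genes tested. At an unadjusted p under 0.05, 4 members and 2569 of all genes passed there.

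The promoters of 4 of these genes are printed so that their starts can be compared: Stx3 and Stx2, the more abundant of the plasma-membrane syntaxins that fell, and Snap23 and Napa, which rose. Each is the first RefSeq window of the gene on GRCm38.p6 of 250 bases before to 50 bases after the gene's start, written 5′ to 3′ on the gene's strand. Capitals mark matches on either strand to the cAMP response element TGACGTCA, its half-site TGACG, the GC box GGGCGG or the CCAAT box. Half-site counts include the half-sites within a full element.
Stx3, chr19:11819354-11819653, minus strand: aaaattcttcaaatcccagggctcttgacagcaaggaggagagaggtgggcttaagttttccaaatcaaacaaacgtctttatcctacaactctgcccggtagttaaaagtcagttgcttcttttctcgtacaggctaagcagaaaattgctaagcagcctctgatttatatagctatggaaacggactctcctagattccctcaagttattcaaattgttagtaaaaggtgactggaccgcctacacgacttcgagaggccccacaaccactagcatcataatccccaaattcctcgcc
Stx2, chr5:129008523-129008822, minus strand: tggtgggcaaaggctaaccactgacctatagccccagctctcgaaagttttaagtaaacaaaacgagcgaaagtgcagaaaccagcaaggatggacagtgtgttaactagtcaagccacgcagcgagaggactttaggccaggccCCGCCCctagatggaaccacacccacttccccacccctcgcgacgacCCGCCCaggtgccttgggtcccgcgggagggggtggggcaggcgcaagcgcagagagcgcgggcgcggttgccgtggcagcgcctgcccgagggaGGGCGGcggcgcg
Snap23, chr2:120567421-120567720, plus strand: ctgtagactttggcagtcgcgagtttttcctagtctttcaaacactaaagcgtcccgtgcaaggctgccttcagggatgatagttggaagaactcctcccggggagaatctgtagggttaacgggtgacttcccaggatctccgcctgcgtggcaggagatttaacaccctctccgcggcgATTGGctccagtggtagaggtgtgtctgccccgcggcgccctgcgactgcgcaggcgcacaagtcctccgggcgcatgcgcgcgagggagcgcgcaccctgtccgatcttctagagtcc
Napa, chr7:16098330-16098629, plus strand: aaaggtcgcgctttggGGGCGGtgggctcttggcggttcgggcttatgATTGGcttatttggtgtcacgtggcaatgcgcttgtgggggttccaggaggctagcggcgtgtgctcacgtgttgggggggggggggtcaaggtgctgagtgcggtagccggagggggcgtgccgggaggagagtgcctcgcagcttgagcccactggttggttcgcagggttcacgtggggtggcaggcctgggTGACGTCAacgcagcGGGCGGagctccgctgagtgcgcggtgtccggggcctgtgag
The Stx3 window holds none of these letters and the Stx2 window holds 3 GC boxes. Stx2 has a second window, chr5:128990187-128990486 on the same strand, with no GC box and 3 CCAAT boxes. That of Snap23 has a CCAAT box read on the opposite strand, and that of Napa has the full cAMP response element, 2 GC boxes and 1 CCAAT box. Of the 40 members, 36 matched a promoter by symbol. Taking the first window per gene, the full element was found in 3 of 36 (8.3%; Gosr2, Napa and Stxbp3) and in 1.9% of 27025 genes. The half-site was found in 14 of 36 (38.9%) and in 21% of all. GC boxes were found in 23 of 36 (63.9%) against 35.9%, and CCAAT boxes in 13 of 36 (36.1%) against 37.9%. These are matches of letters, and none was tested as a site.

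Stx3 had the clearest separation of any member. It was at 36.6 TPM at the lowest, 50.1 at the median and 56.3 at the highest in the 8 GFP-negative libraries, and at 24.1, 27.4 and 31.9 TPM in the 8 GFP-positive libraries. Every GFP-positive library lay below every GFP-negative one, which was the case for no other member and for 5.98% of all genes in either direction. The log2 difference was -0.79 (SE 0.0862; limma adjusted p = 8.54e-06). It passed the threshold within each clone in the main fit, but not within C1 with the replicate block. The calls in C1 and C11 were also lost on leaving out some single libraries of those clones. The within-clone log2 difference was -1.09 in C43 (adjusted p = 0.000656), -0.83 in C11 (0.00688), -0.64 in C1 (0.0254) and -0.60 in C50 (0.0126), or -0.83 in C50 (0.00081) without GFP-negative replicate 1. Stx2, a close relative with a broader membrane distribution, was at 17.5, 27.9 and 35.5 TPM (lowest, median, highest) in GFP-negative and 9.65, 15.0 and 25.5 TPM in GFP-positive libraries. The ranges overlapped across clones, but the GFP-positive library was lower in 8 of 8 same-numbered comparisons within a clone (log2 -0.84, SE 0.118; limma adjusted p = 7.78e-05). Replicate numbers did not pair the libraries, so such counts can depend on the numbering. For Stx2, Stx18 and Stx6 they do not, since within each clone both GFP-positive libraries lay below both GFP-negative ones. Within C50 the Stx2 difference was -1.10 (adjusted p = 0.00541), or -1.45 without GFP-negative replicate 1, and within C43 -0.95 (0.0171), while -0.75 in C11 and -0.55 in C1 did not pass. The difference between these 4 values did not pass its own test (interaction adjusted p = 0.65).

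Stx4a, a further syntaxin of the plasma membrane, had group means of 31.6 ± 9.26 and 32.5 ± 0.679 TPM (SD, n = 2 each, GFP-negative then GFP-positive) in C1. For C11 they were 35.1 ± 0.502 and 36.8 ± 6.70 TPM, for C43 37.7 ± 1.54 and 44.3 ± 5.84 TPM, and for C50 44.4 ± 7.38 and 44.9 ± 1.68 TPM. The log2 difference was 0.09 (SE 0.0918; adjusted p = 0.481). The make-up of the trio of Stx2, Stx3 and Stx4a can be given as shares of its summed level. Stx4a held 26.8% ± 4.53 (SD, n = 2) of their summed TPM in C1 GFP-negative cells and 36.9% ± 0.58 (n = 2) in C1 GFP-positive cells. For C11 the shares were 31.9% ± 2.81 and 46.3% ± 4.72, for C43 32.1% ± 2.01 and 53.8% ± 6.0, and for C50 40.3% ± 10.6 and 54.1% ± 0.18. In wild-type cells it was 35.2% ± 3.71 with vehicle and 32.8% ± 3.75 with dDAVP (n = 3 each). Stx3 held the largest share of the trio in the GFP-negative cells of C1, C11 and C43. In the GFP-positive cells of all 4 clones Stx4a did, though in C1 Stx3 was close behind at 36.2%. These shares rest on the same values as the tests above and were not tested again.

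**Figure D3:**
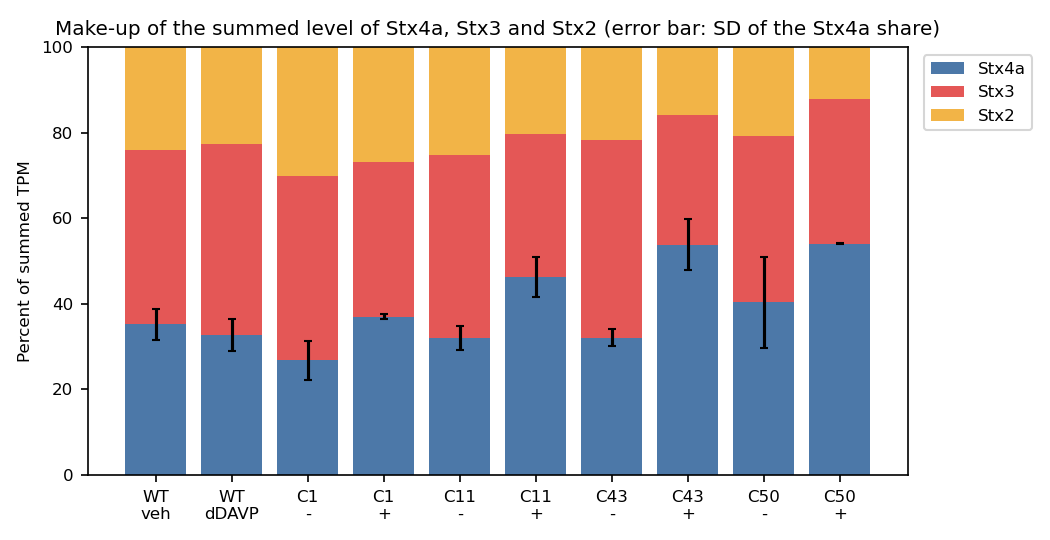
Percent of the summed TPM of Stx4a, Stx3 and Stx2 (y axis) held by each in the 10 groups (x axis; - and +, GFP-negative and GFP-positive); bars are means of 3 wild-type or 2 clone libraries, and the error bar is the SD of the Stx4a share. The Stx4a part is taller in the GFP-positive than in the GFP-negative bar of each clone.

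Among the falling Q-SNAREs, Stx18 and Stx6 act inside the cell. Stx18, which works with Use1, Bnip1 and Sec22b in retrograde transport to the endoplasmic reticulum, was at 25.8, 34.1 and 35.3 TPM (lowest, median, highest) in GFP-negative and 15.7, 23.5 and 27.2 TPM in GFP-positive libraries. Its ranges overlapped across clones, but the GFP-positive library was lower in 8 of 8 same-numbered comparisons (log2 -0.54, SE 0.0753; limma adjusted p = 7.09e-05). Nsg1 and the uncharacterized Gm42858 lie on the other strand and cover 32.3% of the Stx18 exons, so their reads cannot be told apart without strand. Nsg1 had mean levels of 0.055 TPM in GFP-negative and 0.153 TPM in GFP-positive libraries, and Gm42858 of 0.628 and 0.45 TPM. Of Stx18's partners, Use1 rose, while Bnip1 (log2 0.16; adjusted p = 0.109) and Sec22b (log2 -0.07; adjusted p = 0.306) did not pass. Use1 was at 104.6, 114.4 and 191.7 TPM in GFP-negative and 143, 145.3 and 167.8 TPM in GFP-positive libraries, the 191.7 being replicate 1 of C50. Its log2 difference was 0.28 (SE 0.0978; limma adjusted p = 0.0395), and 0.37 (adjusted p = 4.9e-05) without that library. The call was lost in 20 of 31 alternatives (adjusted p from 4.9e-05 to 0.66), among them the omission of any 1 library of C1, C11 or C43 or of C50 GFP-negative replicate 2.

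Stx6, a Qc-SNARE of the trans-Golgi network and endosomes, was at 44.2, 52.7 and 66.0 TPM in GFP-negative and 32.9, 38.4 and 45.3 TPM in GFP-positive libraries. The highest GFP-positive value, from C11, exceeded the lowest GFP-negative values, yet the GFP-positive library was lower in 8 of 8 comparisons (log2 -0.45, SE 0.0712; limma adjusted p = 0.000217). The 4 clones gave nearly the same difference, between -0.42 and -0.49 (interaction adjusted p = 0.995). Stx1a was low, at 7.62, 10.2 and 13.1 TPM in GFP-negative and 3.34, 6.59 and 10.7 TPM in GFP-positive libraries, with overlap (log2 -0.55, SE 0.17; limma adjusted p = 0.0199; lower in 7 of 8 comparisons). The 2 C43 GFP-positive libraries alone spanned that whole GFP-positive range, and the call was lost without clone C1 (adjusted p = 0.0878) or C11 (0.142). Stx7, of late endosomes, went the other way (log2 0.24, SE 0.0733; limma adjusted p = 0.0202; higher in 7 of 8 comparisons). Its C11 means were 216 ± 10.1 and 214 ± 9.64 TPM (GFP-negative and GFP-positive; SD, n = 2), so the GFP-positive mean was not higher there, whereas C1 had 116 ± 2.44 and 150.1 ± 11.98 TPM. The call was lost without clone C1 (adjusted p = 0.136) or C43 (0.103).

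Vamp2, the vesicle R-SNARE of regulated secretion, was at 26.1, 49.5 and 57.4 TPM (lowest, median, highest) in GFP-negative and 52.9, 72.1 and 94.9 TPM in GFP-positive libraries. Only the upper GFP-negative and the lowest GFP-positive values overlapped (log2 0.63, SE 0.155; limma adjusted p = 0.00537; higher in 7 of 8 comparisons). C50 passed alone, with a log2 difference of 1.33 (adjusted p = 0.00262), or 0.88 (0.00566) without GFP-negative replicate 1, while C11 had 0.47, C1 0.44 and C43 0.28, and the interaction had an adjusted p of 0.369. C50 holds both the lowest GFP-negative library, replicate 1 at 26.1 TPM, and the highest GFP-positive ones. Without that replicate the difference over the clones was 0.48 (adjusted p = 0.000484), and without clone C50 it was 0.39 (adjusted p = 0.00336). In wild-type cells the corresponding dDAVP value, -0.67, had the opposite sign and did not pass.

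Snap23, which supplies the Qb and Qc helices at the plasma membrane, was at 22.1, 34.9 and 38.1 TPM in GFP-negative and 33.6, 44.6 and 51.8 TPM in GFP-positive libraries. The C1 GFP-positive libraries lay within the GFP-negative range (log2 0.42, SE 0.113; limma adjusted p = 0.00884; higher in 7 of 8 comparisons). Without C50 GFP-negative replicate 1 it was 0.33 (adjusted p = 0.00266), and without clone C50 it was 0.29 (adjusted p = 0.0185). Without clone C43 it was 0.43 and no longer passed (adjusted p = 0.0522). Napa, the alpha-SNAP adaptor that brings NSF to SNARE complexes, was at 131, 162 and 170.0 TPM in GFP-negative and 158, 178 and 206 TPM in GFP-positive libraries. It was higher in 8 of 8 comparisons by a small amount (log2 0.20, SE 0.0628; limma adjusted p = 0.0219), but the adjusted p was 0.0501 without clone C50, 0.0571 without C1, 0.0937 without C43 and 0.0507 without C50 GFP-positive replicate 1. The count of 8 depends on the numbering, as C1 GFP-positive replicate 1 (157.9 TPM) lay below C1 GFP-negative replicate 2 (158.3 TPM). Napg, the gamma-SNAP adaptor, was at 14.6, 17.8 and 21.7 TPM and 19.8, 21.8 and 23.5 TPM, also higher in 8 of 8 (log2 0.29, SE 0.0847; limma adjusted p = 0.0164). That count too depends on the numbering, as the 19.8 and the 21.7 TPM both came from C11. The Napg call was lost without clone C1 (adjusted p = 0.0834) or C43 (0.067). With this numbering, the same sign in 8 of 8 comparisons was seen for 9 members (5 higher, 4 lower) and for 23.9% of all genes. Nsf, which these adaptors recruit, did not pass (log2 -0.05, SE 0.138; adjusted p = 0.822).

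**Figure D4:**
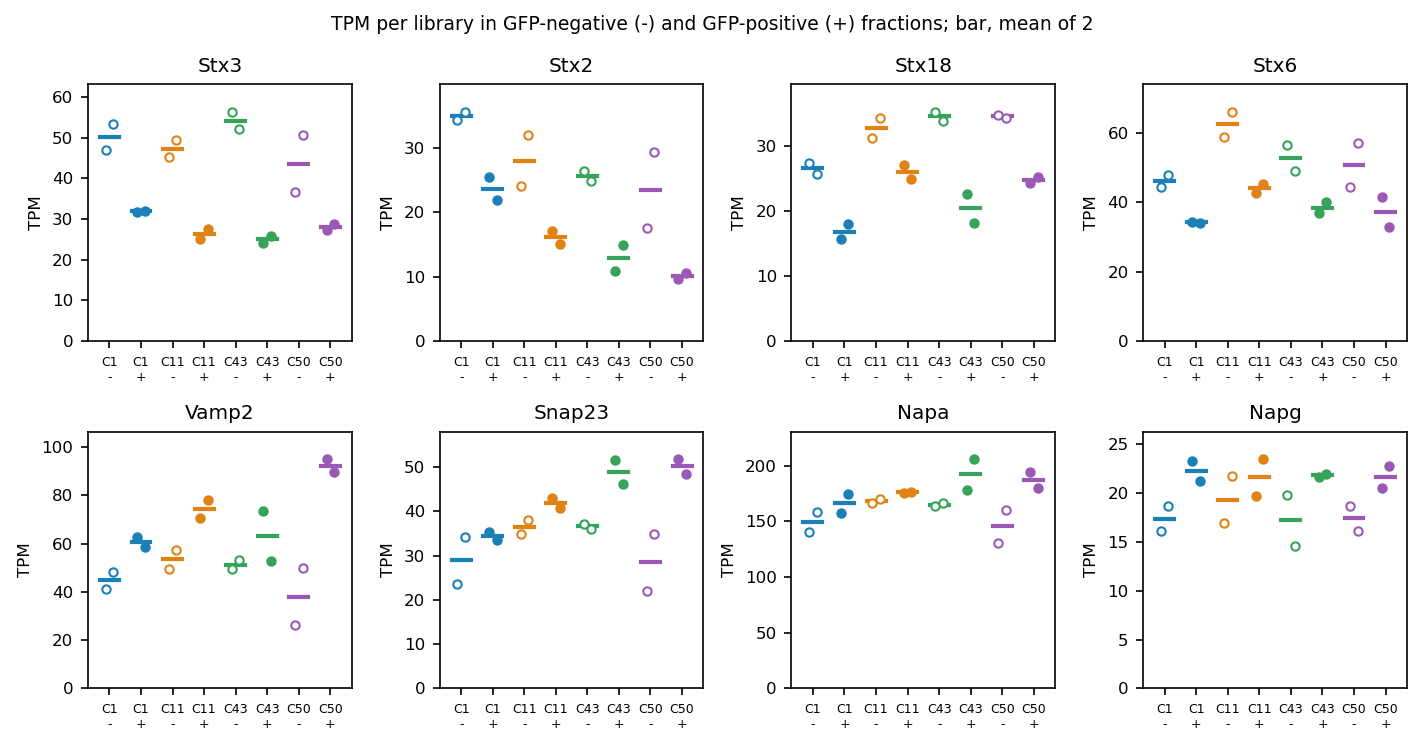
TPM per library (y axis, from 0) of 8 called members in GFP-negative (open, -) and GFP-positive (filled, +) cells of 4 clones; bars are means of 2 libraries. Stx3, Stx2, Stx18 and Stx6 are lower in the GFP-positive cells of each clone; for Vamp2 and Snap23 the widest gap is in C50.

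The remaining vesicle-linked members did not pass the threshold on the deposited scale, though some did after scaling. Vamp8 was at 331 to 561 TPM in GFP-negative and 355 to 589 TPM in GFP-positive libraries (log2 0.12, SE 0.0803; limma adjusted p = 0.287). Without C50 GFP-negative replicate 1, the highest GFP-negative library for Vamp8, its log2 difference was 0.18 (adjusted p = 0.0274). Vamp3 gave a log2 difference of 0.08 (SE 0.0623; adjusted p = 0.335), Stxbp2 of 0.10 (SE 0.0565; adjusted p = 0.214) and Stxbp3 of 0.03 (SE 0.104; adjusted p = 0.868). Stx16, which fell with dDAVP, had 0.20 (SE 0.136; adjusted p = 0.295). Stx5a (log2 0.17; adjusted p = 0.0676) and Stx17 (0.22; 0.11) were higher in 8 of 8 comparisons without passing. Both counts depend on the numbering. For Stx5a, C11 GFP-positive replicate 2 (224.5 TPM) lay below C11 GFP-negative replicate 1 (226.9 TPM). For Stx17, C43 GFP-positive replicate 1 (16.85 TPM) lay below C43 GFP-negative replicate 2 (18.16 TPM). Under median-ratio scaling and quantile normalization alike, 7 further members passed, all higher. Their limma adjusted p-values in that order were 0.0484 and 0.0295 for Vamp3, 0.037 and 0.0402 for Stxbp2, 0.0498 and 0.026 for Stx16, and 0.002 and 0.0262 for Stx5a. For Stx17 they were 0.0098 and 0.00946, for the endosomal syntaxin Stx12 0.0165 and 0.0133, and for the Golgi Qb-SNARE Gosr1 0.0444 and 0.0333. By role, and against 35.3% of all genes (12.1% higher, 23.2% lower), 5 of 10 Qa syntaxins were called (1 higher, 4 lower), 2 of 5 Qc (1 higher, 1 lower), 1 of 3 Qbc, 1 of 8 R-SNAREs and 2 of 4 of the NSF and SNAP genes. These roles held all 11 calls. No member was called in both the dDAVP and the GFP comparison, against 5.37% of the genes tested in both, and 26 were called in neither. At an unadjusted p under 0.05 in both, there were 5 (Stx2, Stx5a, Stx17, Vamp2 and Stxbp4), against 15.2% of all genes.

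**Figure D5:**
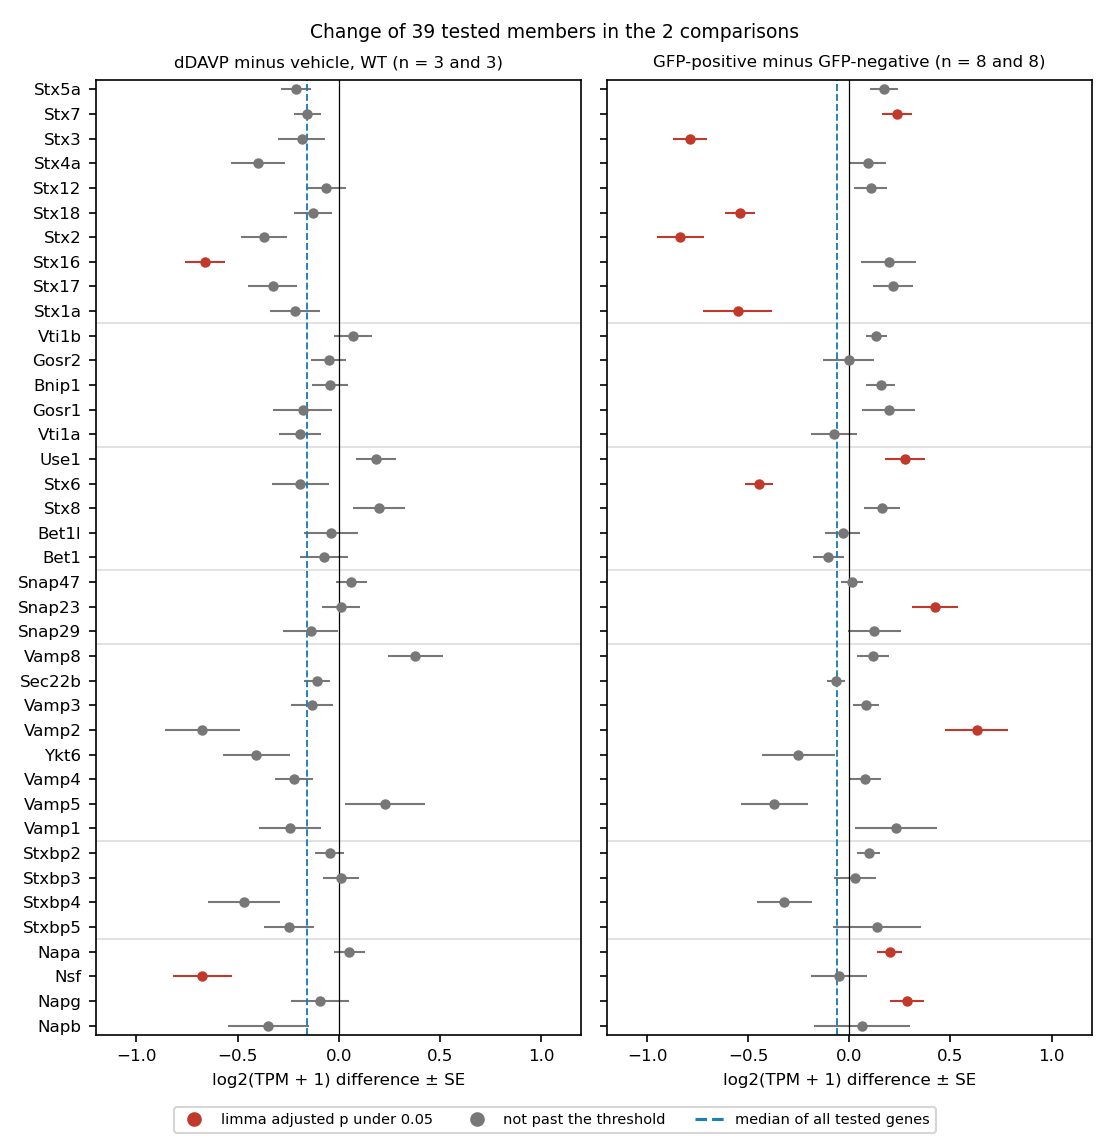
Difference in log2(TPM + 1) ± SE (x axis) of the 39 tested members, for dDAVP against vehicle in wild-type cells (left; 3 and 3 libraries) and GFP-positive against GFP-negative cells (right; 8 and 8); red, limma adjusted p under 0.05, dashed line, median of all tested genes. On the left 2 points are red, both negative; on the right 11 are, 6 positive and 5 negative.

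Within clone C1, 2 members were called (Stx3 and Stx18) against 7.22% of all genes (2.31% higher, 4.91% lower). C11 had 1 (Stx3) against 7.94% (2.23% higher, 5.7% lower), and C43 had 3 (Stx2, Stx3 and Stx18) against 16.3% (4.29% higher, 12% lower). C50 had 8 against 26.6% (12.8% higher, 13.8% lower). All calls in C1, C11 and C43 were lower, but not after scaling: median-ratio scaling gave 1 higher and 1 lower in C1 and in C11 and 3 of each in C43, and quantile normalization 1 and 1, 1 and 1, and 1 and 3. C50 had 4 higher (Stx5a, Snap23, Vamp2 and Napa) and 4 lower (Stx2, Stx3, Stx18 and Vamp5). Vamp5, an R-SNARE known from muscle and endothelium, was at 28.0 and 18.2 TPM in C50 GFP-negative and 9.59 and 8.80 TPM in C50 GFP-positive cells (log2 -1.21, SE 0.233; limma adjusted p = 0.00332), while the other clones gave -0.14, 0.01 and -0.13. Without C50 GFP-negative replicate 1, the higher of the pair, the C50 value was -0.91 (adjusted p = 0.0181). Its interaction adjusted p was 0.237, the lowest of any member. No member passed the interaction test (limma F-test; 0.869% of all genes did), and 2, Vamp2 and Vamp5, had an unadjusted p under 0.05, against 12.9% of all genes. The C50 results rest on its 2 GFP-negative libraries: with replicate 2 left out, 22 members were called in C50 (17 higher, 5 lower) and 14 in the interaction test. With replicate 1 left out, 7 were called in C50: Vamp2 and Stx8 higher, and Stx2, Stx3, Stx18, Stx6 and Vamp5 lower. Stx5a (adjusted p = 0.0645), Snap23 (0.0623) and Napa (0.183) no longer passed there, and the interaction count stayed at 0. Without C50 GFP-positive replicate 1, 4 members were called in C50, and without replicate 2, 3. The spread is shared over the clones, and leaving out either C50 GFP-negative library gave 5 members in C1, 5 or 6 in C11 and 8 in C43, of which 1 or 2 were higher in each clone. Leaving out a library of C1 itself gave 0 (GFP-negative or GFP-positive replicate 1) or 1 (replicate 2 of either). C11 had 0 without GFP-negative replicate 2 or GFP-positive replicate 1, and 2 without either C43 GFP-positive library.

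The clones also differed from each other after the GFP fraction was taken into account, for 12 of 39 members against 28% of all genes (limma F-test, adjusted p under 0.05). C1 was the extreme clone for most of them, lowest for 7 and highest for 3. The same count was not made over all genes. All C1 libraries but GFP-positive replicate 2 were among the 8 with fewer genes detected (17206 to 19586). Clone C1 and the number of genes detected thus cannot be fully told apart. Without clone C1, 1 member was called, and without C1 GFP-positive replicate 1, 6. Without C50 GFP-negative replicate 1, 20 were. Bnip1, the Qb partner of Stx18, averaged 26.7 TPM over the 4 C1 libraries and 44.5, 43.6 and 43.2 TPM in C11, C43 and C50 (adjusted p = 0.000208). Stx7 averaged 133 TPM in C1 and 215, 213 and 187 TPM in the others (adjusted p = 0.000432), and Vamp8 356 TPM against 483, 493 and 469 TPM (adjusted p = 0.0181). Stx5a stood out upward, at 339 TPM in C1 against 228, 209.8 and 233 TPM (adjusted p = 0.000376). Stx4a was lowest in C1 at 32.1 TPM and highest in C50 at 44.6 TPM (adjusted p = 0.0472). For Stx2 these were the clones with the highest and the lowest mean, at 29.3 and 16.8 TPM (adjusted p = 0.00623).

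Around the members, 62 of 88 further genes of vesicle tethering and fusion were tested, from lists of tethers, calcium sensors and related SNAREs. With dDAVP 7 were called (1 higher, 6 lower) and between GFP fractions 10 (2 higher, 8 lower), against the same 8.88% and 35.3% of all genes. The direction of these calls turned with the scaling: between GFP fractions 9 were higher and 5 lower with median-ratio scaling, and 12 and 6 with quantile normalization. With dDAVP both scalings left 1 higher and 1 lower. Without dDAVP replicate 2 the first count was 8, and without any of the other 5 wild-type libraries it was 0. The second was 20 without C50 GFP-negative replicate 1, and 5 or 6 without any of 9 libraries of C1, C11 and C43 (C1 GFP-negative 2 and GFP-positive 1, C11 GFP-negative 1 and 2 and GFP-positive 1, and all 4 of C43). Calcium sensors and fusion regulators gave 4 of 11 called between GFP fractions, all lower. Syt12, a synaptotagmin, averaged 8.87 TPM in GFP-negative and 2.20 TPM in GFP-positive libraries (log2 -1.68, SE 0.144; limma adjusted p = 9.05e-07), and Unc13d, a priming factor of granule release, 21.9 and 8.58 TPM (log2 -1.22, SE 0.206; adjusted p = 0.000359). For both, all GFP-positive libraries lay below all GFP-negative ones. Esyt1, an extended synaptotagmin of membrane contact sites, fell in this comparison (log2 -0.65; adjusted p = 0.000827) and with dDAVP (log2 -0.50; adjusted p = 0.016). Syt8 was the gene that rose with dDAVP, from a mean of 89.1 to 119.7 TPM (log2 0.42, SE 0.0746; limma adjusted p = 0.0201), without overlap. Txlna, a syntaxin-binding taxilin, fell with dDAVP (log2 -0.44; adjusted p = 0.0345) and between GFP fractions (log2 -0.36; adjusted p = 0.0482).

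Of 9 exocyst genes, Exoc1 fell between the GFP fractions (log2 -0.40; limma adjusted p = 0.00347) and Exoc7 fell with dDAVP (log2 -0.33; adjusted p = 0.042). The exocyst tethers vesicles to the plasma membrane. Among 4 further SNAREs, Stx11 fell in both comparisons, by 0.66 with dDAVP (adjusted p = 0.0485) and by 0.50 between GFP fractions (adjusted p = 0.0412) on the log2 scale. It is a syntaxin best known from cytotoxic leukocytes and works there with Unc13d and Stxbp2. Vps16, of the HOPS and CORVET endosomal tethers, fell with dDAVP (log2 -0.37; adjusted p = 0.0269), the only call among 7. Zw10, of the tether at the endoplasmic reticulum that holds Stx18, fell in both (log2 -0.38, adjusted p = 0.0337, and log2 -0.25, adjusted p = 0.0401). Scfd1, the Sec1/Munc18 protein that binds Stx5a, rose between the fractions (log2 0.20; adjusted p = 0.0402), as did Vps53 of the GARP tether (log2 0.22; adjusted p = 0.0199). Cog8 of the Golgi COG complex fell (log2 -0.20; adjusted p = 0.0417).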

How the data were processed

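RNA was made into cDNA with the SMART-Seq HT kit, which does not mark strand, and into paired-end libraries with Nextera XT, per the labels' protocols. The deposited values are TPM, made by the authors with STAR and RSEM, per the submitters' processing notes; versions, genome build and annotation are not given in the sources used here. Of 55415 lines, 980 that share 79 symbols were summed, leaving 54514 entries. The table's 16 columns of group means, maxima and ratios were not used.

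Differences were tested on log2(TPM + 1) with limma 3.58.1 (R 4.3.3, mean-variance trend, two-sided, Benjamini-Hochberg over all genes with a mean of at least 1 TPM in the comparison). A fold change on this scale understates the change of low genes. Clone was a covariate in the GFP fit; fits within clones pooled the spread of all 16 libraries. Scripts were tested on simulated data. Exon overlaps come from GENCODE M21, where 52081 table identifiers and all 40 members were found; promoters come from RefSeq (GRCm38.p6).

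Members and lists were chosen with earlier results of these data known. Described with values are members called with dDAVP, called between GFP fractions with the same sign in at least 7 of 8 comparisons, or called for the interaction, plus those linked to aquaporin-2 vesicles or the plasma membrane. Replicate numbers did not pair the libraries, so the rule of 7 of 8 can depend on the numbering. Of other pathway genes, up to 3 called genes per list with the largest change and a mean of at least 5 TPM are named. Alternatives were another pseudocount (0.1), filter, scaling, trend, covariate or block, and libraries or clones left out.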

Additional observations from a re-analysis of the deposited data

How the results depend on the processing

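Depth is unknown in TPM, and 2 or 3 libraries per group limit every test. No called member changed direction under any alternative run. Between the GFP fractions, Stx2, Stx3, Stx18, Stx6 and Vamp2 lost their call in 1 of 31 alternatives, the 8 clone libraries with fewer genes detected (17206 to 19586, both fractions in 3 clones; chosen after seeing the data). Their log2 differences there were -0.62, -0.67, -0.70, -0.28 and 0.74, in that order. In the 8 clone libraries with more genes detected, where limma called 29.9% of all genes, each kept its call. Use1 lost its call in 20 alternatives, Napa in 7, Stx7 in 5, Napg and Stx1a in 4 each and Snap23 in 2. With dDAVP, Stx16 lost it in 4 of 15 and Nsf in 11.

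Counts below are members called, then other pathway genes, and the causes of the changes were not tested. With dDAVP (2 and 7) they were 1 and 2 with median-ratio scaling, with quantile normalization, without a trend, and with any TPM above 0. They were 6 and 18 with genes detected as a covariate, and 0 (9 at an unadjusted p under 0.05, limma) and 1 with all 22 libraries in one fit. Of all genes tested, the covariate fit called 20% and the fit of 22 libraries 5.96%, against 8.88% in the main fit. The share was 6.67% with median-ratio scaling, 6% with quantile normalization, 5.12% without a trend and 1.16% with any TPM above 0. Over the GFP fractions (11 and 10) they were 7 and 4 with any TPM above 0, 19 and 18 with quantile normalization, and 0 and 1 in the 8 libraries with fewer genes, where 4 members had an unadjusted p under 0.05. Of all genes tested, these fits called 9.24%, 38.7% and 1.96% in that order, against 35.3% in the main fit. Median-ratio scaling called 17 members and 35.8% of all genes. The fit of 22 libraries called 16 pathway genes and 41.5% of all genes. Without clone C1 6 members were called, without C11 4 pathway genes, without C43 6 and 3, and without C50 18 pathway genes. Within C1 (2) and C50 (8), any TPM above 0 gave 1 and 5 members. Within C11 (1), both scalings gave 2, and within C43 (3) median-ratio scaling gave 6. Between clones (12), 7 were called with any TPM above 0, 1 without C1 and 7 without C11.

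Leaving out 1 library at a time gave 0 to 5 members and 0 to 8 pathway genes with dDAVP, 10 to 17 and 5 to 20 over the GFP fractions, 0 to 5 within C1, 0 to 6 within C11, 2 to 8 within C43, 3 to 22 within C50, 0 to 14 for the interaction and 6 to 20 between clones. Where an arm kept 1 library, it was assumed to vary like the others. The counts after omissions of a library or clone are given without the share of all genes called under the same omission.

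Replicate numbers did not pair the libraries: correlations of same-numbered deviations were -0.208, -0.0254 and -0.109 in wild-type cells and 0.0151 to 0.203 in the clones. With the replicate block, limma called 0 members (6 at an unadjusted p under 0.05) and 0 pathway genes with dDAVP (Stx16 at an adjusted p of 0.0816), with 122 genes called in place of 1198, and 0 members within C1. Over the GFP fractions the block called 11 members. The block was not run for the difference between clones, where it is nested in clone.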
